A study of Homo sapiens with 8 samples.

Results

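The aminoacyl-tRNA synthetases are the enzymes that load each tRNA with its amino acid. A list of 35 of their genes was followed in 2 populations derived from H460 cells, an established human non-small cell lung cancer line: cells grown as cancer stem cells (CSCs, H460C) and cisplatin-resistant cells (H460R). The list holds 19 enzymes of the cytosol (symbols ending in 1, with FARSA and FARSB) and 16 enzymes of the mitochondria (symbols ending in 2). Members were set by gene name, matched through the RefSeq accession of each array probe. No measured value entered that rule, although the list was chosen with earlier results of these data known. Of the 35 genes, 33 were matched to a probe (CARS1 and EARS2 were not), and all 33, 18 cytosolic and 15 mitochondrial, were tested, among 12374 named genes.

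RPMI with 10% fetal bovine serum was the medium of H460 and of H460R. H460R cells had survived 0.5 µg/ml of cisplatin, a DNA-crosslinking drug, for 72 h and had then been kept without the drug. H460C cells came from H460 cells cultured without adhesion in DMEM/F12 with 2 mM glutamine, 5 mM Hepes, 0.4% BSA, N2 supplement, EGF and FGF-b, so that the effects of medium and of cell population cannot be told apart in H460C. Their RNA was compared with that of H460 on 8 two-color Agilent arrays of the human genome, with 2 RNA samples per population and 2 dye-swapped arrays per sample. Only 1 RNA sample of H460 appears in the labels. The 2 comparisons with H460 therefore share their control, and its own spread enters no test.

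Values are log2 ratios over H460, the mean of the dye-swapped arrays of a sample. A probe was tested when it was well above background in all arrays of a population. The replicate samples of H460C could not be told from repeat hybridizations of 1 RNA, since they differed by less than the array noise (their differences in the 2 dye orientations correlated at r = -0.01 across 24642 probes, against 0.27 across 25745 probes in H460R), so that H460C is given as 1 sample, without an SD, although the tests took its ratios as 2. Nothing in the labels says that the H460R samples came from separate cultures, and their spread may be technical. Each population lay on a slide of its own, so a difference between the populations and one between the slides cannot be told apart. In bulk RNA, fewer cells of a kind and less RNA per cell cannot be told apart either. KRT8, KRT18 and KRT19, keratins of epithelial cells, were well above background in every channel, and PTPRC, the leukocyte antigen CD45, on no array. CDH1 (E-cadherin) and PECAM1, an endothelial adhesion molecule, were above background only in the H460C channel, on 4 of 4 arrays. EPCAM, another epithelial marker, was above it on 4 of 4 H460C, 3 of 4 H460R and 7 of 8 H460 arrays, and its log2 ratio was 1.36 in H460C, where that of KRT19 was -1.15. DCN, of fibroblasts, was above it on 1 of 4 H460C, 4 of 4 H460R and 8 of 8 H460 arrays, and CD3E, of T cells, on 4, 4 and 6. The part of these markers in the results was not tested.

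Each amino acid needs its own synthetase. Cytosolic enzymes serve the ribosomes of the cytosol, and a separate set, also encoded in the nucleus, serves the ribosomes of the mitochondria. Several cytosolic enzymes sit together in the multisynthetase complex on the scaffolds AIMP1, AIMP2 and EEF1E1. When uncharged tRNA builds up, the kinase GCN2 raises translation of the transcription factor ATF4, and genes of cytosolic synthetases are known ATF4 targets, together with genes of serine synthesis and amino acid transport.

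The median of the cytosolic synthetases lay below that of all genes in H460C and in H460R, which share their H460 control, while that of the mitochondrial enzymes lay near it. Of single genes, each read from its brightest probe, WARS1 and AARS1 fell in H460R by Rank Products, and none was called in H460C. The median log2 ratio of the 18 cytosolic genes was -0.40 in H460C and -0.60 in H460R, beside 0.00 in both populations over all genes tested. For the 15 mitochondrial genes it was -0.07 in H460C and -0.06 in H460R, and with arrays centred on their median in place of loess these 2 medians changed sign, to 0.10 and 0.06. In the separate RNA samples the cytosolic median was -0.37 and -0.41 in H460C and -0.63 and -0.65 in H460R, and the mitochondrial one ran from -0.11 to -0.05. The cytosolic median thus lay 0.32 and 0.35 below the mitochondrial one in the H460C samples and 0.52 and 0.56 below it in the H460R samples.

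**Figure D1:**
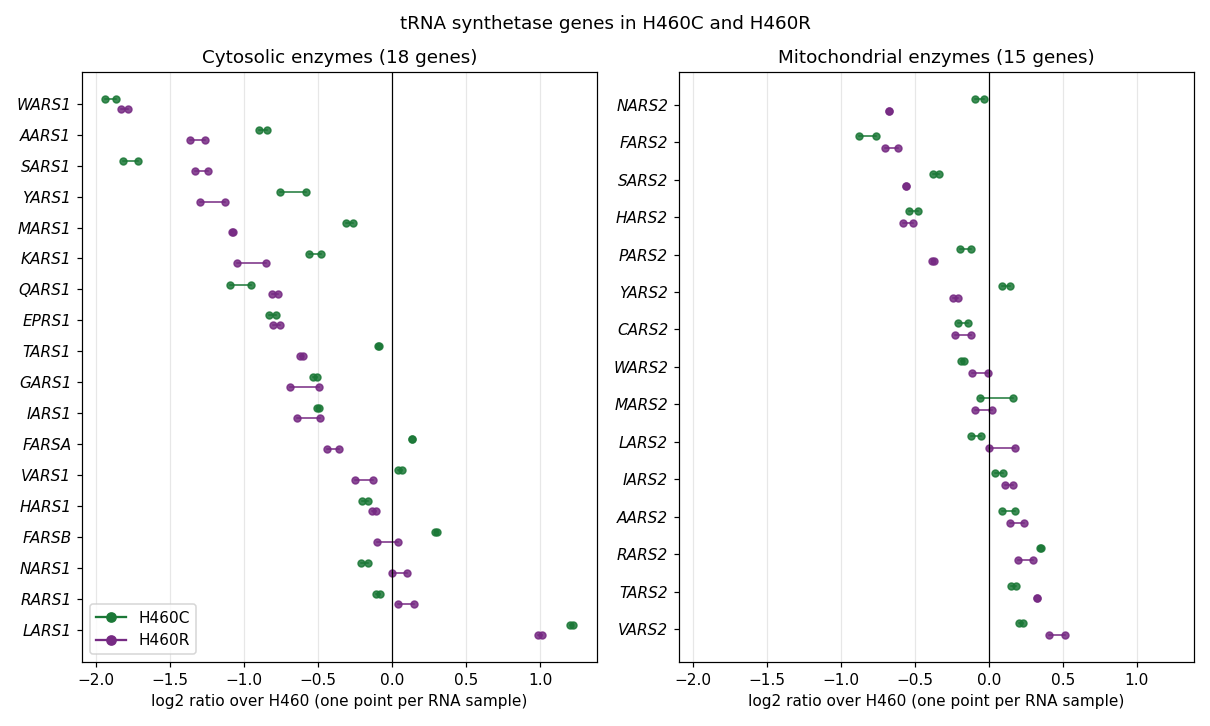
Log2 ratio over H460 (horizontal axis) of each cytosolic (left) and mitochondrial (right) synthetase gene, with 1 point for each RNA sample of H460C (green) and H460R (purple). WARS1, AARS1, SARS1 and YARS1 hold the lowest H460R values among the cytosolic genes, and the mitochondrial means keep between -0.82 and 0.46.

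WARS1, the tryptophanyl-tRNA synthetase, which is also induced by interferon gamma, had the lowest ratio of all members in both populations. Its ratios in H460R were -1.79 and -1.83, a mean of -1.81 ± 0.03 (SD, n = 2) or 3.51-fold lower than in H460 (Rank Products FDR = 0.0080). In H460C they were -1.87 and -1.94, a mean of -1.90 or 3.74-fold lower, with an FDR of 0.054 in the same test. The 8 arrays gave values from -2.01 to -1.60, and the populations overlapped. In H460C the Cy3 arrays read -1.94 and -2.01, below the Cy5 arrays at -1.796 and -1.867. In H460R the order was the opposite, with -1.603 and -1.809 in Cy3 and -1.975 and -1.859 in Cy5. The H460R call was kept under 12 of 12 alternatives, and H460C passed the threshold under 4 of 12. Among the 12 is a setting without an H460C array, which left the H460R ratios unchanged. H460C minus H460R was -0.09 (95% interval -0.24 to 0.06).

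When each gene was read from its brightest probe, AARS1, the alanyl-tRNA synthetase, was the other member that passed Rank Products in H460R. Its ratios were -1.27 and -1.37, a mean of -1.32 ± 0.07 (SD, n = 2) or 2.49-fold lower (FDR = 0.046). The H460R arrays with the studied cells in Cy3 read -0.73 and -0.78 and those in Cy5 -1.81 and -1.95, all below 0 and far apart by dye. With the Cy3 arrays alone its FDR was 0.37. It passed under 7 of 12 alternatives, among them the setting without an H460C array. In H460C the ratios were -0.85 and -0.90 (FDR = 0.32).

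By Rank Products, 2 of the 33 members fell in H460R and none rose, where 0.509% of all genes tested were called lower and 0.558% higher. No member was called in H460C, where 0.541% of all genes were called lower and 0.719% higher. At an unadjusted p of 0.05, 7 members were lower and 1 higher in H460C, beside 10.6% and 10.9% of all genes, and 15 lower and 1 higher in H460R, beside 8.67% and 9.34%. By limma on the same ratios, 18 members fell and 6 rose in H460C, where 35.8% of all genes were called lower and 37.8% higher. In H460R, limma called 20 lower and 5 higher, beside 32.7% and 35.7% of all genes. Of the cytosolic genes alone, limma called 12 of 18 lower in H460C and 13 of 18 in H460R, and of the mitochondrial ones 6 and 7 of 15. Rank Products called few genes of any kind from 2 ratios, and limma, with no measure of the spread of H460 itself, called most of them.

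Beside WARS1 and AARS1, a group of cytosolic enzymes had ratios near or below -1 in H460R. SARS1, the seryl-tRNA synthetase, gave -1.25 and -1.34 in H460R, 2.45-fold lower on average (FDR = 0.054). In H460C it gave -1.82 and -1.72, 3.41-fold lower on average (FDR = 0.065), where the first value rests on 1 array because the spot of the dye-swapped array was marked as an outlier. YARS1, the tyrosyl-tRNA synthetase, had -1.13 and -1.30 in H460R (FDR = 0.066) and -0.59 and -0.76 in H460C (FDR = 0.48). These H460R ratios were thus close to that of AARS1 without passing the same threshold. SARS1 passed it under 5 of 9 alternatives (FDR from 0.027 to 0.13) and YARS1 under 2 of 12 (FDR from 0.017 to 0.46).

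The multisynthetase complex holds 7 of the members, with a median log2 ratio of -0.50 in H460C and -0.78 in H460R. MARS1, the methionyl-tRNA synthetase of the complex, which charges initiator tRNA too, had -1.09 and -1.08 in H460R and -0.27 and -0.32 in H460C at its brighter probe. Its second probe, for the same accession, read -1.46 in H460R, where it passed Rank Products (FDR = 0.025), and -0.77 in H460C. Both probes thus had lower values in H460R than in H460C, at different depths. KARS1, the lysyl-tRNA synthetase, whose gene gives the cytosolic and the mitochondrial form, had a mean of -0.95 ± 0.14 (SD, n = 2) in H460R and of -0.52 in H460C. QARS1, which charges glutamine, had -0.96 and -1.10 in H460C and -0.81 and -0.78 in H460R. EPRS1, the fused enzyme for glutamate and proline, averaged -0.81 in H460C and -0.78 in H460R, and IARS1, for isoleucine, -0.50 and -0.57. The arginine enzyme RARS1 averaged -0.09 and 0.09, where its H460C arrays read -0.43 and -0.48 in Cy3 and 0.27 and 0.27 in Cy5.

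LARS1, the leucyl-tRNA synthetase and a leucine sensor for mTORC1, was the member with the highest ratio, and its 2 probes disagreed. The brighter probe read 1.22 and 1.20 in the H460C samples and 0.98 and 1.02 in those of H460R, above 0 on 8 of 8 arrays (Rank Products FDR = 0.25 and 0.27). The other probe, for the same accession, read -0.34 in H460C and -0.38 in H460R. The direction of LARS1 against H460 therefore depends on the probe.

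The remaining cytosolic genes lay nearer to 0. GARS1, for glycine, which like KARS1 also serves mitochondria, averaged -0.52 in H460C and -0.59 ± 0.14 (SD, n = 2) in H460R. TARS1, the threonyl-tRNA synthetase, averaged -0.10 in H460C and -0.61 ± 0.01 in H460R. FARSA and FARSB, the paired subunits of the phenylalanyl-tRNA synthetase, had 0.13 and 0.30 in H460C and -0.40 and -0.03 in H460R. VARS1, HARS1 and NARS1, for valine, histidine and asparagine, had means from -0.19 to 0.05 over both populations. For these 3 genes the arrays with the studied cells in Cy3 read above 0 and those in Cy5 below 0, in both samples of both populations. FARSA split the same way in H460C, and RARS1 and TARS1 the opposite way. The means hold both orientations equally.

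The dye orientation moved with the cytosolic median as a whole. With the studied cells in Cy3 it was -0.27 and -0.33 in H460C and -0.44 and -0.44 in H460R. With the studied cells in Cy5 it was -0.65 and -0.76 in H460C and -0.81 and -0.97 in H460R. The median was below 0 on every array and lower in Cy5 than in Cy3 for each sample. That of all genes kept between 0.01 and 0.02, where the loess normalization of each array holds it near 0 in either orientation. Averaging the orientations balances a dye effect. Of the 18 cytosolic genes, 10 were below 0 on every array in H460C and 11 in H460R, beside 31.9% and 27% of all genes. Above 0 on every array were 2 in H460C and 1 in H460R, beside 34.5% and 30.6% of all genes. Of the 15 mitochondrial genes, 7 and 6 were below 0 on every array and 2 and 3 above it. SARS1 and CARS2 had 3 arrays in H460C.

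**Figure D2:**
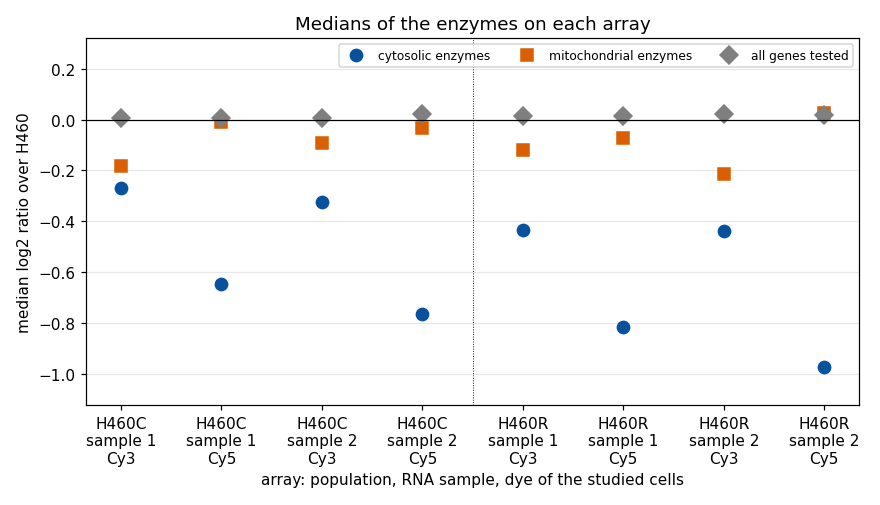
Median log2 ratio over H460 (vertical axis) of the cytosolic enzymes (circles), the mitochondrial enzymes (squares) and all genes tested (diamonds) on each of the 8 arrays, named by population, RNA sample and dye of the studied cells. The cytosolic median lies below the mitochondrial one on every array, by 0.09 to 1.00.

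None of the mitochondrial enzymes passed Rank Products in either population. FARS2, the mitochondrial phenylalanyl-tRNA synthetase, had the lowest H460C ratios among them, -0.77 and -0.88, with -0.61 and -0.71 in H460R. NARS2, for asparagine, was at -0.03 and -0.10 in H460C and at -0.67 in both H460R samples. HARS2 averaged -0.51 and -0.55, and SARS2 -0.36 and -0.56, in H460C and H460R. At the other end stood VARS2, which had 0.23 and 0.20 in H460C and 0.40 and 0.51 in H460R at its brighter probe, and -0.06 and 0.05 on average at the other. RARS2 averaged 0.35 and 0.25, and TARS2 0.16 and 0.32. AARS2, CARS2, IARS2, LARS2, MARS2, PARS2, WARS2 and YARS2 had means between -0.38 and 0.19 in both populations, and the 2 probes of CARS2 differed in sign in H460R, at -0.18 and 0.15.

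For most amino acids the cytosolic enzyme lay below its mitochondrial counterpart. Among 15 pairs of genes for the same amino acid (FARSA and FARSB each set against FARS2, and EPRS1 against PARS2), the cytosolic ratio was the lower one in 11 in H460C and in 10 in H460R. The gap was widest for tryptophan, where WARS2 read -0.18 in H460C and -0.06 in H460R and the difference WARS1 minus WARS2 was -1.73 and -1.75. Serine had a gap of -1.41 in H460C and -0.73 in H460R, and alanine one of -1.01 and -1.51. Phenylalanine, histidine and leucine went the other way in both populations, with LARS1 subject to its probes. Asparagine went from -0.12 in H460C to 0.72 in H460R, where NARS2 was the lower one. These gaps are differences between ratios of separate genes and carry no test.

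**Figure D3:**
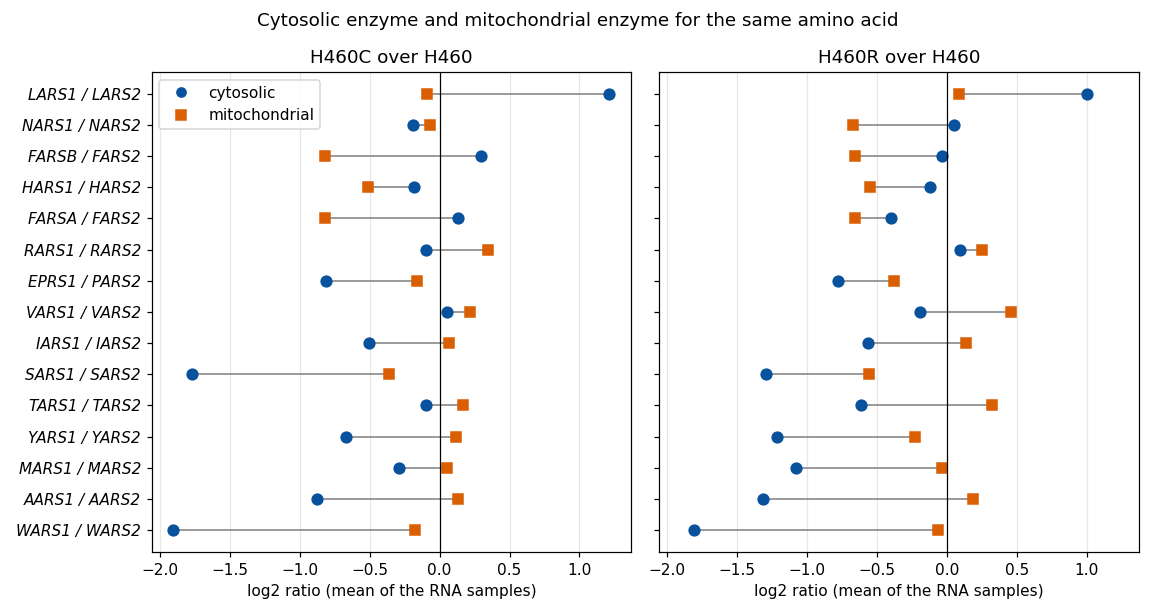
Mean log2 ratio over H460 (horizontal axis) of the cytosolic (circle) and the mitochondrial (square) enzyme for the same amino acid, in H460C (left) and H460R (right). The longest line in H460C and in H460R is that of WARS1 and WARS2, and the mitochondrial enzyme is the lower one in 4 pairs in H460C and 5 in H460R.

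The genes of both histidyl-tRNA synthetases lie head to head on chromosome 5. The 84 bases between their starts (GRCh38.p14, chr5:140691371-140691454, RefSeq promoter windows, plus strand, read toward HARS2) are shown because one stretch faces both genes. Capitals mark its 2 copies of the ETS core CCGGAAG, 1 on each strand.
HARS1 and HARS2: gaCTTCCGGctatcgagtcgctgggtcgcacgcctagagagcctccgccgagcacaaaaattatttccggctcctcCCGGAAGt
HARS2 was below 0 on 8 of 8 arrays, from -0.61 to -0.44, whereas HARS1 at its brighter probe ran from -0.77 to 0.48 with the dye. At the second HARS1 probe the means were -0.08 in H460C and -0.15 in H460R. The pair of genes therefore had unlike ratios at both HARS1 probes.

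Set against each other directly, where the shared H460 RNA drops out, H460C and H460R differed in 17 of the 33 members. By limma, 13 members were higher in H460C, where 30.9% of all genes were called, and 4 were lower, where 29.1% were. Calls in both directions together were no more frequent among the members than over all genes. The lower calls alone were fewer among the members, without a test of that share. The share of all genes is given for this fit alone, so the counts under other settings describe only the members. The split depended on the processing. It was 7 higher and 0 lower with arrays centred on their median, 8 and 0 with the Cy5 arrays alone, 11 and 10 with the Cy3 arrays alone, 13 and 7 with the authors' table or without background subtraction, and 13 and 2 with a normexp offset of 0. With the H460C samples averaged into 1, 9 were higher and 1 lower, all of them among the 17. AARS1, FARSA, MARS1, TARS1, YARS1 and NARS2 passed in each of 19 fits, which leave out only the one that asked for a minimum difference of 0.5.

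MARS1 had the largest difference, 0.79 ± 0.06 (SE, adjusted p = 3.5e-04, limma). Its 4 arrays lay between -0.35 and -0.26 in H460C and between -1.13 and -1.02 in H460R, without overlap, and its second probe gave 0.69. NARS2 followed with 0.61 ± 0.06 (adjusted p = 7.9e-04, limma), and its arrays did not overlap either. YARS1 was higher in H460C by 0.54 ± 0.09 (adjusted p = 0.0051, limma) and FARSA by 0.53 ± 0.06 (adjusted p = 0.0013, limma). TARS1 differed by 0.52 ± 0.05 (adjusted p = 0.0011, limma), with H460C arrays from -0.36 to 0.16 above H460R arrays from -0.83 to -0.42. AARS1 differed by 0.44 ± 0.06 (adjusted p = 0.0031, limma). KARS1, YARS2, FARSB, VARS1, PARS2, LARS1 and SARS2 were higher in H460C by 0.20 to 0.43. VARS1, PARS2, LARS1 and SARS2 lost the threshold when the H460C samples were averaged into 1, and for LARS1 and PARS2 the second probe did not pass it.

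The 4 members that were lower in H460C than in H460R were led by SARS1, with -0.48 ± 0.07 (SE, adjusted p = 0.0028, limma). Its difference was -0.17 with median centring (adjusted p = 0.57, limma) and -0.24 with the Cy5 arrays alone (adjusted p = 0.16, limma). The first H460C value of SARS1 came from the Cy5 array alone. In each sample with both dyes SARS1 read lower in Cy5 than in Cy3, so that dye and population mix in this difference. VARS2 followed with -0.24 ± 0.06 (adjusted p = 0.025, limma), although its second probe did not pass. NARS1 was lower by -0.24 ± 0.06 (adjusted p = 0.027, limma) and QARS1 by -0.24 ± 0.07 (adjusted p = 0.036, limma). VARS2, NARS1 and QARS1 lost the threshold when the H460C samples were averaged into 1. The other 16 members did not pass the test. Their 95% intervals, which count the H460C ratios as separate samples, lay between -0.38 and 0.33.

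**Figure D4:**
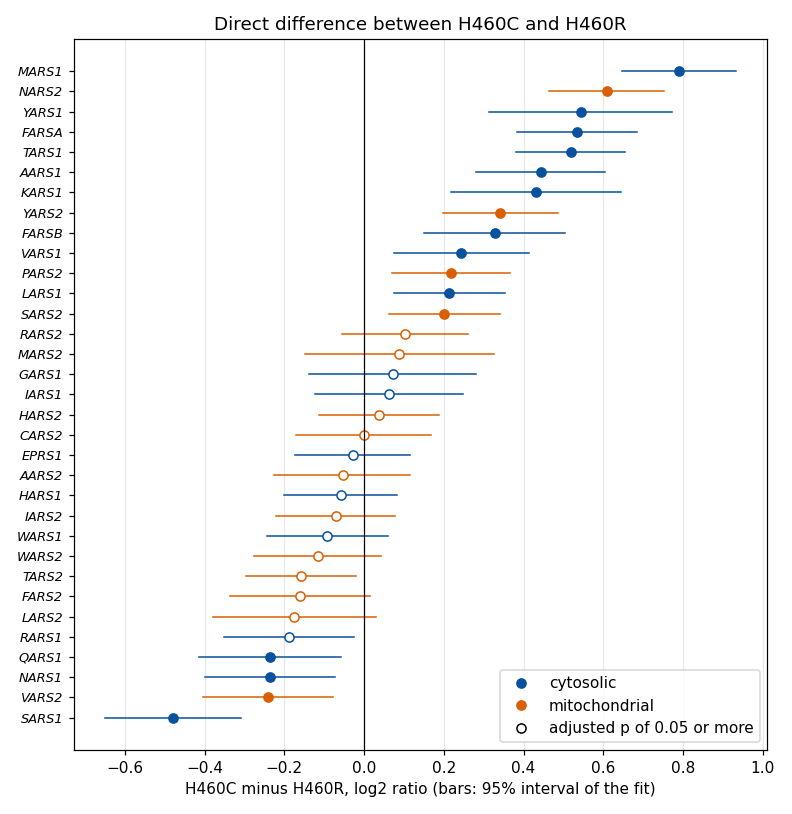
Difference H460C minus H460R in log2 ratio (horizontal axis) for each member, with its 95% interval from the fit, cytosolic genes in blue and mitochondrial genes in orange. Filled points passed an adjusted p of 0.05: 13 lie to the right of 0, up to 0.79 for MARS1, and 4 to the left, down to -0.48 for SARS1.

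Promoters were read because several members lay low together and because cytosolic synthetases are textbook ATF4 targets. RefSeq windows of GRCh38.p14, from 250 bases before to 50 bases after the start, were found for 30 of the 35 members. The composite ATF4-C/EBP element was searched as TGATGNAA on both strands. It was found in 7 of 16 cytosolic genes with a window (43.8%) and 1 of 14 mitochondrial ones (7.14%). Beside them stand 4.46% of all 27305 genes with a window, whether or not they were tested on the arrays. A gene with several starts had several windows and counted once, when any of them held a match. The matches of the genes that were measured are printed with 10 bases on each side, in the direction of transcription, and capitals mark the element, which on the opposite strand reads TTGCATCA or TTTCATCA.
AARS1: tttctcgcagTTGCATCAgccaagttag
GARS1: tacgcggcgaTTTCATCAtgctccgagc
IARS1: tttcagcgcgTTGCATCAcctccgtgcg
MARS1: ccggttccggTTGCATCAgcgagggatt
NARS1: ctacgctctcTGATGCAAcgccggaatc
TARS1: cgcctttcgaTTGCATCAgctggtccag
YARS2: tccacactgcTGATGGAAaaattaagtt
Positions count from the start of the window that holds the match (1 is the first transcribed base and -1 the base before it). By that count the element began at -187 in AARS1 (chr16:70289676-70289703, minus strand), -33 in GARS1 (chr7:30594835-30594862, plus strand) and -13 in IARS1 (chr9:92293693-92293720, minus strand). It spanned the start of MARS1, from -4 to 4 (chr12:57488054-57488081, plus strand), and began at 3 in TARS1 (chr5:33440957-33440984, plus strand) and at 15 in NARS1 (chr18:57621805-57621832, minus strand). In the mitochondrial YARS2 it began at -197 (chr12:32756077-32756104, minus strand). CARS1 holds the same letters and was not measured. The 6 measured cytosolic genes with the element had a median log2 ratio of -0.40 in H460C and -0.60 in H460R, and the 9 whose windows do not hold these letters, WARS1 and SARS1 among them, -0.52 and -0.78. LARS1, VARS1 and YARS1 had no window here, and the medians carry no test. H460C minus H460R was above 0 in 5 of the 6 with the element and in 3 of the 9 without it. It was also above 0 in LARS1, VARS1 and YARS1 (0.21, 0.24 and 0.54), whose promoters were not searched. The median difference of all genes was 0.02, and the split by element was not tested. Of the 6 with the element, AARS1, MARS1 and TARS1 had the higher value in H460C by the direct test, NARS1 was lower, and GARS1 and IARS1 did not pass.

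A pair of other motifs was searched the same way, and all genes here again means the 27305 with a window, not those tested on the arrays. The ETS core CCGGAAG was found for 9 of 16 cytosolic and 7 of 14 mitochondrial genes (56.2% and 50%), beside 12.2% of all genes. WARS1, SARS1 and TARS1 were among the cytosolic ones. The NRF1 core GCGCANGCG was found for 3 cytosolic genes (FARSB, SARS1 and TARS1) and 3 mitochondrial ones (IARS2, MARS2 and PARS2), beside 9.02% of all genes. These motifs share no overlapping match with the element in the sequences printed, and a match is a description of letters, not a bound site.

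Genes of the amino acid response, the program in which ATF4 takes part, had a lower median in H460R than the cytosolic synthetases. Of 23 listed genes 22 were tested, with a median log2 ratio of -0.41 in H460C and -1.15 in H460R. Rank Products called 9 of them lower in H460R and none higher, beside 0.509% of all genes, and none in H460C. In H460C, 9 were lower at an unadjusted p of 0.05, beside 10.6% of all genes, and 18 fell by limma, beside 35.8%. The 9 were PCK2 (-2.66), the mitochondrial PEP carboxykinase, PHGDH (-2.55), PSAT1 (-2.12) and SHMT2 (-1.80) of serine and glycine synthesis, ASNS (-2.19), which makes asparagine, the one-carbon enzyme MTHFD2 (-1.41), the leucine transporter SLC7A5 (-1.39), and CHAC1 (-1.65) and TRIB3 (-1.47), both ATF4 targets. The same genes read from -1.64 to 0.01 in H460C. ATF4 itself was at -0.40 in H460C and -0.81 in H460R, and H460C minus H460R was 0.41 ± 0.07 (SE, adjusted p = 0.0043, limma). By the direct test, 16 of the 22 had the higher value in H460C, beside 30.9% of all genes, and 4 the lower, beside 29.1%, the latter including the cystine transporter SLC7A11, at -0.92, and the stress factor DDIT3, at -0.87. The asparaginyl-tRNA synthetase of the cytosol, NARS1, was at 0.05 in H460R, where ASNS was at -2.19.

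**Figure D5:**
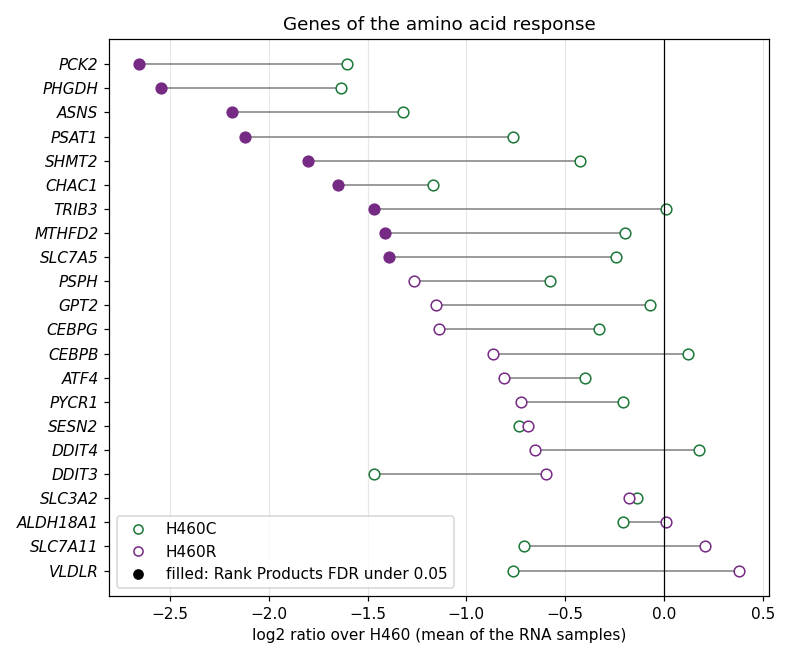
Mean log2 ratio over H460 (horizontal axis) of 22 genes of the amino acid response in H460C (green) and H460R (purple), with filled points for genes called by Rank Products. The 9 filled points are all of H460R, from -2.66 for PCK2 to -1.39 for SLC7A5.

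Partners of the synthetases and the factors that act after charging gave no Rank Products call. Of 6 partners, 5 were tested, and all 5 were below 0 in H460R, led by XPOT, the exporter of tRNA from the nucleus, at -0.97. XPOT was at -0.10 in H460C, and the difference of 0.87 ± 0.06 (SE, adjusted p = 3.2e-04, limma) exceeded that of any synthetase. The scaffolds AIMP1, AIMP2 and EEF1E1 had -0.54, -0.22 and 0.10 in H460C and -0.32, -0.47 and -0.26 in H460R. The 4 cytosolic elongation factors EEF1A1, EEF1B2, EEF1G and EEF2 were below 0 in both populations, with medians of -0.71 in H460C and -0.50 in H460R.

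Mitochondria have no glutaminyl-tRNA synthetase and make their glutaminyl-tRNA through the amidotransferase of QRSL1, GATB and GATC. GATB had -0.76 in H460C and -0.40 in H460R, QRSL1 -0.42 and -0.18, and GATC 0.47 and 0.24. With the mitochondrial translation factors and MTFMT, which formylates the initiator tRNA, these 10 genes had medians of -0.11 in H460C and 0.03 in H460R. By the direct test 2 of the 10 were higher in H460C and 6 lower, beside 30.9% and 29.1% of all genes, and the lower ones included GFM2, a ribosome recycling factor, at -0.71, and TUFM, the elongation factor Tu of mitochondria, at -0.49.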

How the data were processed

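Array images were read by the authors with Feature Extraction. The deposited values used were the median intensities of spots and local background in each channel, without normalization. The deposited log10 ratios of that software and the authors' table of log2 ratios, whose normalization is not given in the sources used here (the submitters' notes name limma), served as alternatives. The deposited 0 or 1 flags for outlier spots, saturated spots and spots well above background were kept. The log10 ratios of 1 array lacked decimal points and were divided by 10 raised to 9.

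Background was corrected with normexp (offset 50), ratios were normalized by loess within arrays, control spots were left out, and outlier spots were set to missing. The 43376 spots gave 41000 probes, and 26014 had at least 0.5 of their spots well above background in every channel of a population, and all ratios. A ratio was the mean of the dye-swapped arrays, or the array left where 1 was missing. The brightest probe stood for its gene. Of 25868 probes with a RefSeq accession, 23958 matched a symbol of the RefSeq table of GRCh38.p14.

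Each population was compared with H460 by Rank Products on 2 ratios (exact distribution of the rank product, Benjamini-Hochberg over all probes in each direction, FDR of 0.05), and H460C with H460R by limma on 4 ratios (two-sided, Benjamini-Hochberg, 2 residual and 3.27 prior degrees of freedom). The work ran in R (4.3.3) with data.table (1.17.8) and limma (3.58.1), and the tests were tried on simulated data. The number of arrays limits the precision. The members, the lists and the motifs were chosen with earlier results of these data known. All members were named, with full statistics for those past Rank Products in a population and for up to 6 with the largest direct difference in each direction among those past the limma threshold (4 were lower in H460C). Epithelial markers were KRT8, KRT18, KRT19, EPCAM and CDH1, and those of other cells PTPRC, PECAM1, DCN, COL1A1 and CD3E.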

Additional observations from a re-analysis of the deposited data

Results flagged for a closer look

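Of all genes, limma called 30.9% higher in H460C than in H460R and 29.1% lower. It called 17 members, a smaller share, whose log2 ratio over H460 differed between the populations. These differences (H460C minus H460R) were picked out because the same contrast gave unlike effects in the 2 populations. The positive ones were 0.79 for MARS1, 0.61 for NARS2, 0.54 for YARS1, 0.53 for FARSA, 0.52 for TARS1, 0.44 for AARS1, 0.43 for KARS1, 0.34 for YARS2, 0.33 for FARSB, 0.24 for VARS1, 0.22 for PARS2, 0.21 for LARS1 and 0.20 for SARS2. The negative ones were -0.48 for SARS1, -0.24 for VARS2, -0.24 for NARS1 and -0.24 for QARS1. Groups of 4 arrays hold 2 samples each and were not searched for outlying samples.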

How the results depend on the processing

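The number of members lower than H460 in H460C by Rank Products was 0, and it was 1 without background subtraction, with the authors' table, or with both dye orientations required for a ratio (an alternative chosen after seeing the data), and 2 without the filter on dim probes. In H460R, where it was 2, it was 1 with the ratios made by Feature Extraction, after median centring, with an offset of 0 in normexp, with the stricter filter (20543 probes) or with the Cy3 arrays alone, and 4 without the filter, with the Cy5 arrays alone or where the probes of a gene were averaged. WARS1 in H460R passed in all 12 of these alternatives, among them the one without an H460C array, which left the H460R ratios unchanged. In place of Rank Products, limma called 24 members in H460C and 25 in H460R, and 7 and 9 with a minimum log2 change of 0.5. The number of members that differed between H460C and H460R, 17, was 7 with median centring, 8 with the Cy5 arrays alone, 1 with a minimum change of 0.5, 10 with the H460C samples averaged into 1, and 7 without the array of H460C sample 1 with H460C in Cy5, on which local background was high (chosen after seeing the data). Leaving out 1 RNA sample in turn gave 10 to 14 members: 11 and 10 without H460C sample 1 or 2, and 14 and 12 without H460R sample 1 or 2. The lone sample was then assumed to vary like the other population. With the replicate number as a block the count was 17 again, but the labels do not say that the numbers pair the samples (same-numbered samples deviated together at r = 0.21, with 2 pairs). The cytosolic median in H460C was -0.43 with the Feature Extraction ratio, -0.24 with median centring, -0.46 in the authors' table, -0.70 with the Cy5 and -0.30 with the Cy3 arrays, -0.51 with the mean over probes, -0.29 with both orientations required and -0.29 without the array of high background. The one in H460R was -0.66 with the Feature Extraction ratio, -0.64 with an offset of 0, -0.53 with median centring, -0.67 in the authors' table, and -0.93 with the Cy5 and -0.41 with the Cy3 arrays. The mitochondrial median in H460C was -0.12 with the Feature Extraction ratio, -0.059 without background subtraction, -0.079 with an offset of 0, 0.10 with median centring, -0.11 in the authors' table, -0.077 with the stricter filter, -0.024 with the Cy5 and -0.060 with the Cy3 arrays, -0.033 with both orientations required and -0.072 without the array of high background. The one in H460R was -0.15 with the Feature Extraction ratio, -0.043 without background subtraction, -0.096 with an offset of 0, 0.059 with median centring, -0.13 in the authors' table, -0.12 with the stricter filter, 0.00040 with the Cy5 and -0.092 with the Cy3 arrays, -0.035 with the mean over probes and -0.035 with both orientations required. Without 1 sample in turn, the cytosolic median kept between -0.41 and -0.37 in H460C and between -0.65 and -0.63 in H460R, and the mitochondrial one between -0.058 and -0.052 and between -0.11 and -0.093. With the Cy3 arrays alone, both orientations required or the high-background array left out, 32 members were measured, since SARS1 lacked an H460C ratio. The stricter filter also left 32, without MARS2. Beyond this change of genes, the causes were not tested. Among single members no called value changed sign under these alternatives, 94 values came to pass the threshold and 84 lost it, and 1493 kept their side. Rank Products on 1 ratio is no test, so that leaving out a sample gave no count against H460. Apart from limma without a minimum change, the share of all genes called under these alternatives is not given here. The counts under them describe only the members. The 2 RNA samples per population, and 1 of H460, limit what these arrays can show.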
